A study of Mus musculus with 8 samples.

Results

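The genes of the caspase-8 complex and of the necroptosis arm that it restrains were followed after Casp8 silencing in a mouse hepatocyte line. Casp8, Cflar, Fadd, Tradd, Ripk1, Ripk3, Mlkl, Cyld and Zbp1 were chosen by symbol, 9 of 34945 named genes in the table. All 9 passed the filter on low values and were among the 14154 genes tested. AML12 is an established mouse hepatocyte line, derived from an animal transgenic for human TGF-alpha. The control group, Scr, is 4 cultures labelled WT that received a scrambled siRNA, and the siCasp8 group is 4 cultures labelled Casp8 knockdown that received Casp8 siRNAs. Both groups got siRNA at 40 nM with the same lipid reagent and were taken after 48 hours. The series' text calls the cultures biological replicates but names no separate days or passages, so p-values measure the spread between these cultures. The knockdown is transient in 1 line, and the sources used here do not give the siRNA sequences. No treatment with a death receptor ligand is named in the labels.

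Caspase-8 is the initiator protease of death receptor signalling. It is recruited by the adaptor FADD through death effector domains and is held in check or steered by the related protein encoded by Cflar, which lacks protease activity. TRADD and RIPK1 join the tumour necrosis factor receptor to this complex, and CYLD removes ubiquitin chains from RIPK1. When caspase-8 is inactive, RIPK1 or ZBP1 can engage RIPK3 through a shared interaction motif, and RIPK3 then phosphorylates MLKL, which breaks the plasma membrane in necroptosis. Caspase-8 cleaves RIPK1, RIPK3 and CYLD, and loss of this brake is lethal in mouse embryos unless necroptosis is also blocked. Primary mouse hepatocytes are known for little or no RIPK3.

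RefSeq promoter windows (GRCm38.p6, 250 bases before to 50 bases after a start) matched 7 of the 9 genes, all but Tradd and Zbp1. Ripk1, though called lower with Fadd, Cyld and Casp8, is not shown, and the matches in its windows are given below. A set of 4 windows is shown, since Casp8 and Cflar lie next to each other on chromosome 1 and since Fadd and Cyld fell together with Casp8. They are chr1:58802252-58802551 (plus strand) for Casp8, chr1:58711241-58711540 (plus) for Cflar, chr7:144582392-144582691 (minus) for Fadd and chr8:88696778-88697077 (plus) for Cyld. The Casp8 window lies inside the gene as annotated by GENCODE, whose first base is chr1:58795374, so it surrounds a start within that span.
Casp8: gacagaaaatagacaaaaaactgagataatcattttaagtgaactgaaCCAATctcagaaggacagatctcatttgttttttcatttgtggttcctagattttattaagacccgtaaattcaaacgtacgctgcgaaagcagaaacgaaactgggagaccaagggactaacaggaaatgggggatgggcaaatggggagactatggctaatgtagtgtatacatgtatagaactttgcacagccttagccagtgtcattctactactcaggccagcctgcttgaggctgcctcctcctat
Cflar: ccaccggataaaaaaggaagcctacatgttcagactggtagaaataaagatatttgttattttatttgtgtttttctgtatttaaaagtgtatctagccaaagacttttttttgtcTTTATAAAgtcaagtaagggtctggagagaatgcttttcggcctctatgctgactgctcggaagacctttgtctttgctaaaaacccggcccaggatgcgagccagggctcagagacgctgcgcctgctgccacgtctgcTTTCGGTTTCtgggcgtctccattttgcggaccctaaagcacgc
Fadd: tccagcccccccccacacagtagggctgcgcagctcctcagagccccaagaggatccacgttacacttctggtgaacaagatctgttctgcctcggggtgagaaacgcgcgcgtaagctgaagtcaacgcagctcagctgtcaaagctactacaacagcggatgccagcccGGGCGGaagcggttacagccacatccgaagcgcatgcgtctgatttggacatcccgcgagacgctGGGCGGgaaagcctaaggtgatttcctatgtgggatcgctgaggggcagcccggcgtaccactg
Cyld: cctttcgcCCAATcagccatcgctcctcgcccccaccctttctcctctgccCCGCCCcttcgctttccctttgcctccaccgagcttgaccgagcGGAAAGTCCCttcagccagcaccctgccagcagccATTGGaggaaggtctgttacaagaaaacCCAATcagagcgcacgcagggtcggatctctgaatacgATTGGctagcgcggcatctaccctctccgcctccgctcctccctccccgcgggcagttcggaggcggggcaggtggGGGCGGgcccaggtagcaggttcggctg
Capitals mark matches, on either strand, to any of 7 words: the GC box GGGCGG, the CCAAT box CCAAT, the TATA box TATAAA, the interferon-stimulated response element core (GAAA, any 2 bases, GAAA), the gamma-activated site TTCNNNGAA, the kappa B word (GGG, any 2 bases, TTTCC) and the E2F word TTTNGCGC.

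The Casp8 window held 1 CCAAT match, a word found in 37.4% of 32851 promoter windows of this length. The Cflar window held 1 match to the interferon-stimulated response element core, present in 3.44% of windows, and matches to the TATA word on both strands at overlapping positions (13.6% of windows). The Fadd window held 2 GC boxes (35.7% of windows). The Cyld window held 2 GC boxes, 4 CCAAT matches and 1 match to the kappa B word, which 1.63% of windows hold. No match to the gamma-activated site (8.30% of windows) or the E2F word (1.38%) was found in these 4 windows. Of the Ripk1 windows that are not shown, chr13:34002624-34002923 (plus) held 2 matches to the gamma-activated site. It also held 1 match to the interferon-stimulated response element core and 4 GC boxes. The other, chr13:34002113-34002412 (plus), held 3 GC boxes and no match to the other words. The window of Casp8, at a start inside the gene, had a GC content of 42.0% and that of Cflar 45.0%, against 60.3% for Fadd and 64.7% for Cyld. A match describes the letters of a window and does not show that a factor binds there.

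In the GENCODE M21 annotation of GRCm38, Casp8 spans chr1:58795374-58847503 and Cflar chr1:58711508-58758884, both on the plus strand and 36.5 kb apart. Fadd lies at chr7:144577318-144582463 (minus). Tradd (chr8:105258286-105264609, minus), Mlkl (chr8:111311797-111338177, minus) and Cyld (chr8:88697028-88751945, plus) share chromosome 8. Ripk1 lies at chr13:34002363-34037147 (plus), Ripk3 at chr14:55784995-55788865 (minus) and Zbp1 at chr2:173206612-173218923 (minus). Exons of Ripk1 share positions with Serpinb6a on the other strand and with the pseudogene Gm17084, and exons of Fadd with the antisense gene Faddos. The sources used here do not say how reads were divided among such genes, so the values of Ripk1 and Fadd carry that uncertainty. Serpinb6a was called higher in siCasp8 (7930 ± 353 to 11122 ± 347, SD, n = 4 each), while Gm17084 was 68.3 ± 19.6 and 71.3 ± 7.93, and Faddos was not analysed here.

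The hepatocyte label was checked against 10 markers, of which 9 were tested, 4 called higher and 2 lower. Of all tested genes 40.2% were called, 19.4% higher and 20.8% lower, so calls in any marker list are read beside these shares. Hnf4a, the gene of a hepatocyte lineage transcription factor, had a mean of 6535 ± 430 in the controls and 6944 ± 106 after silencing, whereas the albumin gene Alb was 86.4 ± 10.7 and 3626 ± 249 (SD, n = 4 each). The urea cycle gene Cps1 had a mean under the filter, with no value above 2.38. Ttr, Apoe and Serpina1a, genes of secreted liver proteins, were called higher with Alb, while Apob and the keratin gene Krt8 were called lower. Of 5 cholangiocyte markers 4 were tested and were abundant in both groups: Spp1 had means of 89795 and 104055, Sox9 7900 and 8774, Krt19 7764 and 6975, and Krt7 2226 and 2003. Spp1 and Sox9 were called higher and Krt19 and Krt7 lower, so markers of both epithelial types were present and moved in both directions. Of 10 macrophage and leukocyte markers, 4 were tested, and the summed value of all 10 was 2836 to 3038 in Scr and 2199.6 to 2349 in siCasp8. Adgre1 and Clec4f, which define liver macrophages, were at 0 in all 8 libraries. Of 5 stellate cell markers 2 were tested, with Des called higher (12.1 ± 8.24 to 45.3 ± 22.6) and Col1a1 lower (117 ± 22.2 to 77.9 ± 23.9). Over the 18 alternatives, 0 to 2 stellate cell markers were called. Of 5 endothelial markers 1 was tested, Pecam1 (304 ± 161 and 224 ± 53.1), which was not called. Estimated depth was 30.7 to 51.8 M reads in Scr and 50.5 to 57.1 M in siCasp8, and Scr replicate 4 was the 1 control within the depth range of the silenced cultures.

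After Casp8 silencing, 4 of the 9 genes were called, all lower in siCasp8: Casp8 itself, Cyld, Fadd and Ripk1. None was called higher, and Cflar, Tradd, Ripk3, Mlkl and Zbp1 were not called. A gene was called at a Benjamini-Hochberg adjusted p under 0.05 in limma's moderated test over all 14154 genes, and by that rule 40.2% of all tested genes were called, 20.8% lower and 19.4% higher. Casp8 is the siRNA target, and of the 8 genes other than it 3 were called lower and 0 higher. The share called in either direction is near the background. The share called lower, 44.4% with Casp8 included, is above the 20.8% of all tested genes. These shares of few genes were not tested and are read as a description of each gene only. The median log2 fold change was -0.06 over the 9 genes and -0.02 over the 8 genes other than Casp8, beside 0.00 over all tested genes. In the same 4 genes the groups did not overlap, which held for 37.5% of tested genes, 19.5% with siCasp8 lower. After upper quartile rescaling, under which the median over all tested genes went from 0.00 to 0.10, the calls were Tradd, Ripk3 and Mlkl higher and Casp8, Cyld and Fadd lower. Over all genes that rescaling turned 2739 higher and 2950 lower calls into 4471 and 1665. Its quartile was taken over the values above 0 in each library. Genes above 0 numbered 17718 to 18565 in Scr and 18706 to 18947 in siCasp8, and the part of this in the shift was not tested. Median ratio scaling and quantile normalization left the median over all tested genes at 0.00 and called 0 of the 9 genes higher. With estimated depth as a covariate, only Casp8 and Cyld of the 9 were called.

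**Figure D1:**
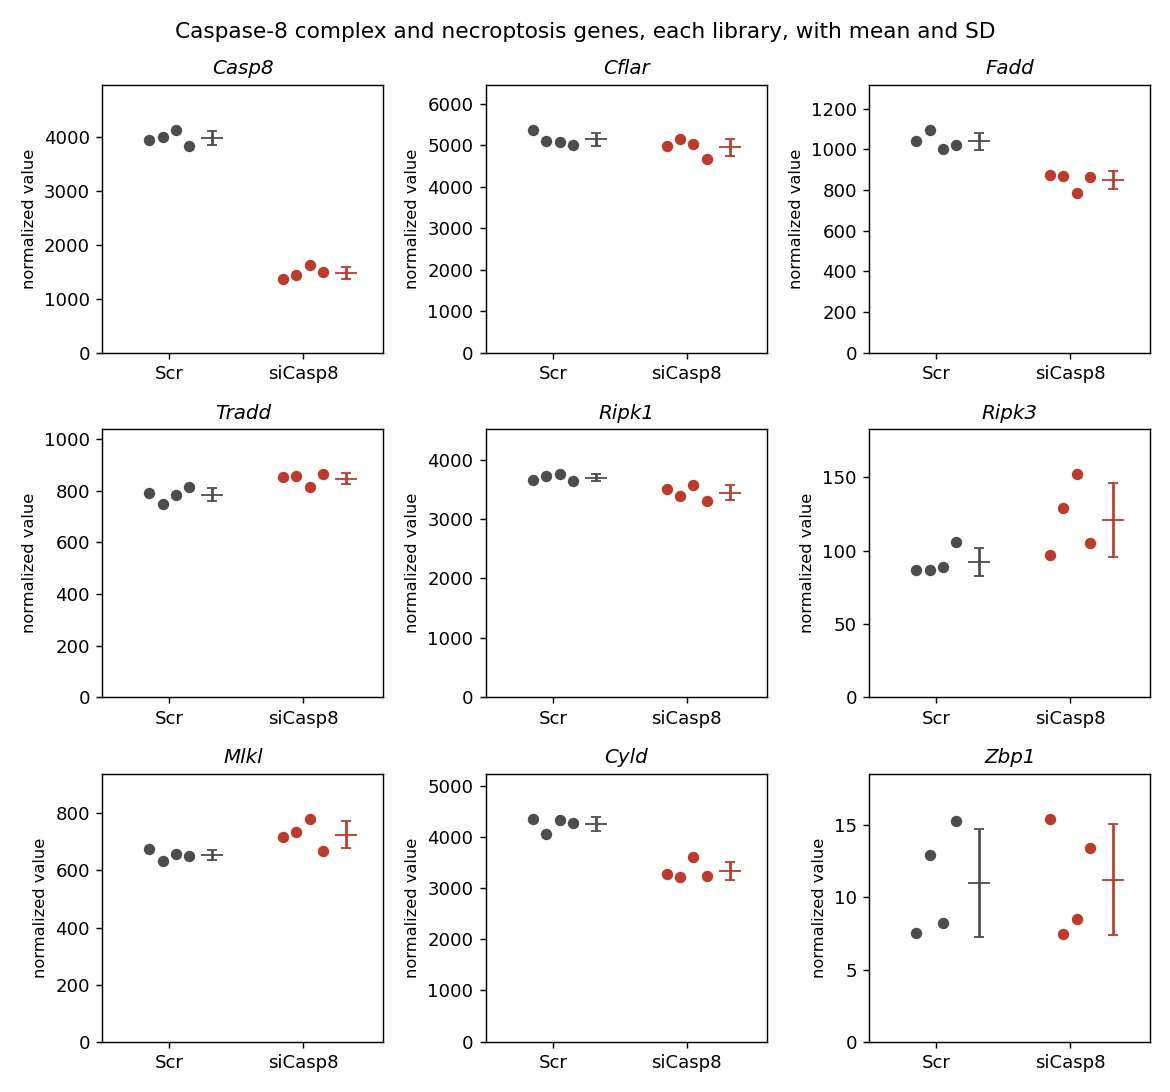
Normalized value of each gene (y axis, from 0, its own scale per panel) in the 4 Scr (grey) and 4 siCasp8 (red) libraries, in replicate order, with the group mean and SD beside the points. The groups are separate for Casp8, Fadd, Ripk1 and Cyld and overlap for the other genes.

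Casp8, the target of the siRNAs, had values of 3936, 3995, 4134 and 3825 in Scr replicates 1 to 4. In siCasp8 replicates 1 to 4 it had 1374, 1431, 1627 and 1490. All 4 silenced cultures were far below every control, and replicate 3 kept the most. The log2 fold change was -1.43 (SE 0.0525, 95% interval -1.54 to -1.31, limma adjusted p = 5.94e-09), which left 37.3% of the Scr mean. Between 1571 and 4397 estimated reads lay behind each of these values. In bulk RNA, fewer cells with the transcript and less transcript per cell cannot be told apart. The fold change lay between -1.47 and -1.33 over the 18 alternatives and was called in each of them.

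Cflar encodes the catalytically inactive partner of caspase-8 and is its neighbour on the chromosome. Its values were 5379, 5104, 5073 and 5015 in Scr and 4972, 5144, 5027 and 4658 in siCasp8. The groups overlapped, with siCasp8 replicate 2 above 3 of the controls. The log2 fold change was -0.06 (SE 0.0399, 95% interval -0.14 to 0.03, limma adjusted p = 0.298), so a fall of more than 0.14 or a rise of more than 0.03 lies outside the interval. After upper quartile rescaling the sign turned (0.05, adjusted p = 0.423). On the other side of Casp8, 52.9 kb beyond its end and on the other strand, lies Trak2, which encodes an adaptor for mitochondrial transport. Trak2 fell from 6484 ± 169 to 4504 ± 80.1 (log2 fold change -0.53, limma adjusted p = 2.36e-07, lower in 4 of 4 siCasp8 cultures).

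The balance of the inactive partner to caspase-8 was followed as a ratio of their values within each library, which does not depend on how libraries are scaled. The Cflar to Casp8 ratio was 1.37, 1.28, 1.23 and 1.31 in Scr and 3.62, 3.59, 3.09 and 3.13 in siCasp8. Every silenced culture was above every control, and the ratio of the group means on the log scale was 2.59-fold. The control log2 ratio was 0.37 ± 0.0652 and the silenced one 1.74 ± 0.124 (SD over 4 cultures), a difference of 1.37 with an exact two-sided permutation p of 0.0286, the smallest that 70 arrangements allow. It was 1 of 2 ratios tested, and the adjusted p over both was also 0.0286. Casp8, the siRNA target, is the denominator and fell in all 4 silenced cultures, while Cflar itself was not called. The separation of this ratio therefore restates the knockdown, and its p-value tests nothing beyond it. The ratio is of values not divided by transcript length, so its size in either group is not a ratio of molecules.

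**Figure D2:**
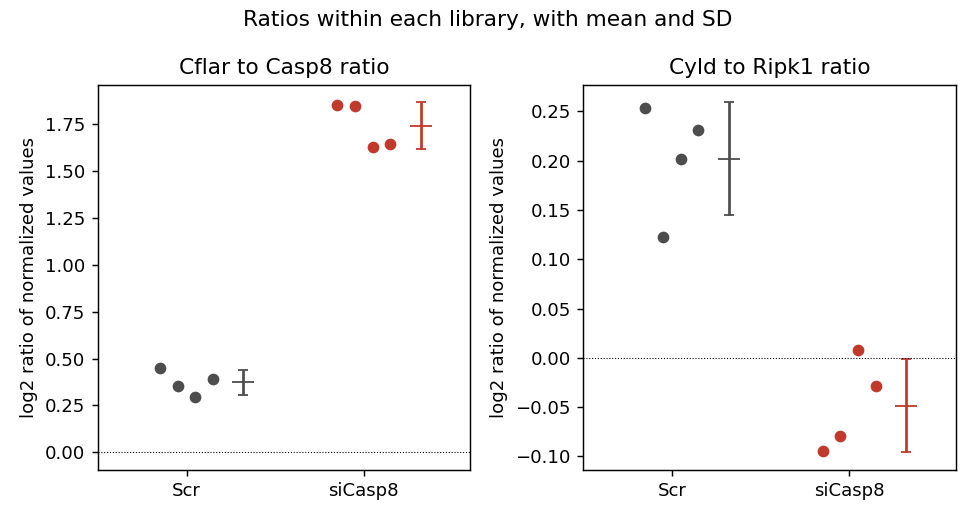
Log2 ratio of normalized values within each library (y axis) for Cflar over Casp8 and for Cyld over Ripk1, in Scr (grey) and siCasp8 (red), with mean and SD. The Cflar to Casp8 ratio is higher in all 4 siCasp8 libraries, and the Cyld to Ripk1 ratio is lower in all 4.

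Fadd encodes the adaptor that brings caspase-8 to death receptors. Its values were 1038, 1097, 1000.4 and 1019 in Scr and 876, 869.7, 784 and 864 in siCasp8. Each silenced culture was below each control, and siCasp8 replicate 3 stood below the other 3. Fadd fell by 18.3% of the Scr mean (log2 fold change -0.29, SE 0.0558, limma adjusted p = 0.00122). With estimated depth as a covariate the fold change was -0.25 and the call was lost (adjusted p = 0.0773), while all 8 fits without 1 library kept it. Tradd encodes the adaptor that joins the tumour necrosis factor receptor to RIPK1 and to the FADD complex. Its values were 791, 751, 784 and 815 in Scr and 852, 859.6, 815 and 865 in siCasp8. Replicate 3 of siCasp8 fell just inside the control range and the other 3 were above it. The log2 fold change was 0.11 (SE 0.0521, 95% interval -0.0028 to 0.22, limma adjusted p = 0.112), and it was called after upper quartile rescaling (0.21, adjusted p = 0.0142).

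Ripk1 encodes the kinase and scaffold on which survival, apoptosis and necroptosis signals meet. Its values were 3655, 3726, 3758 and 3646 in Scr and 3499, 3394, 3582 and 3305 in siCasp8. The groups did not overlap, but the highest silenced culture and the lowest control lay close together. Ripk1 fell by 6.80% of the Scr mean (log2 fold change -0.10, SE 0.0368, limma adjusted p = 0.043). This call was lost in 7 of 8 fits without 1 library, with adjusted p from 0.03 to 0.126 over the 8. It was also lost without the filter on low values, without the trend in limma's prior, under quantile normalization and with the depth covariate (adjusted p = 0.43). After upper quartile rescaling the fold change was -0.0015 (adjusted p = 0.98).

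Cyld encodes the deubiquitinase that trims chains from RIPK1 and is itself a substrate of caspase-8. Its values were 4357, 4056, 4321 and 4279 in Scr and 3278, 3211, 3602.5 and 3239 in siCasp8. Each silenced culture was below each control, and replicate 3, which also kept the most Casp8, was the highest of the 4. Fadd, in contrast, was lowest in that replicate (784). Cyld fell by 21.6% of the Scr mean (log2 fold change -0.35, SE 0.0443, 95% interval -0.45 to -0.26, limma adjusted p = 5.01e-05). It was the 1 gene besides Casp8 among the 9 that was called under all 18 alternatives, with a fold change between -0.39 and -0.25. The Cyld to Ripk1 ratio was 1.19, 1.09, 1.15 and 1.17 in Scr and 0.937, 0.946, 1.01 and 0.980 in siCasp8. No silenced culture reached the control range, and the difference in log2 ratio was -0.25 (exact two-sided permutation p = 0.0286, adjusted p over both ratios 0.0286, n = 4 each). Cyld thus went down relative to Ripk1 within the same libraries. With same-numbered libraries taken as pairs, the exact permutation p was 0.125, the smallest that 4 pairs allow.

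**Figure D3:**
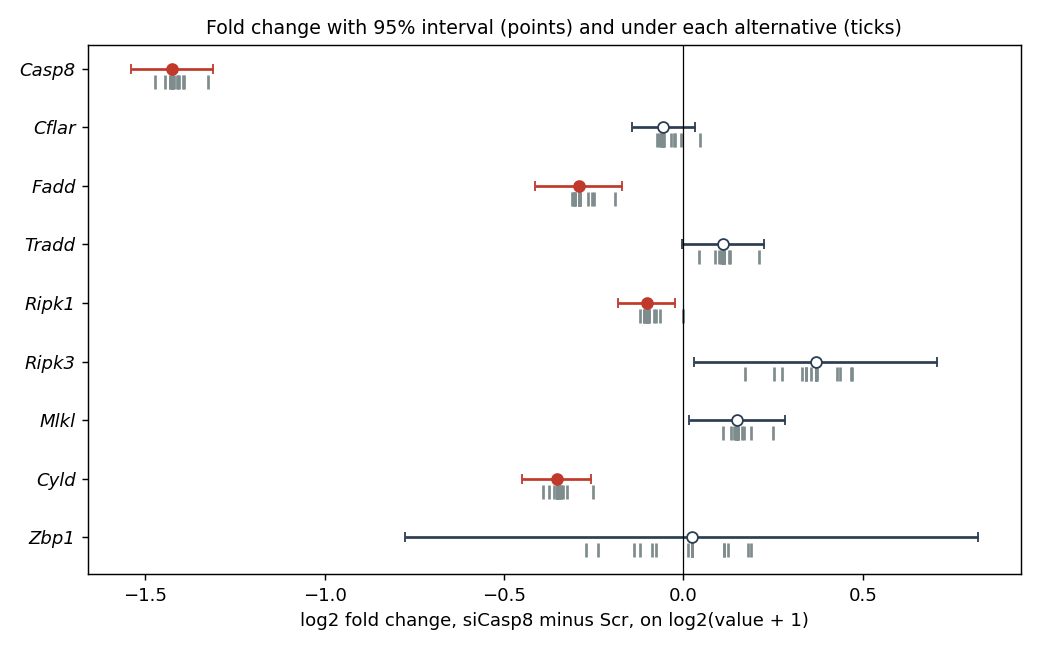
Log2 fold change of siCasp8 minus Scr on the log2(value + 1) scale (x axis) for each gene, with its 95% interval. Filled red points were called by limma and open points were not, and grey ticks give the fold change under each alternative. The intervals of Casp8, Fadd and Cyld lie well below 0, and that of Zbp1 runs from -0.77 to 0.82.

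The kinase RIPK3 and the pore-forming effector MLKL carry out necroptosis. Ripk3 was low, with values of 86.9, 86.8, 89.1 and 106 in Scr and 97.1, 129, 152 and 105 in siCasp8. Replicates 2 and 3 of siCasp8 were above all controls, while replicates 1 and 4 lay below Scr replicate 4, the deepest control. Ripk3 differed by 0.37 on the log2 scale (SE 0.156, 95% interval 0.03 to 0.71), and the limma adjusted p of 0.0783 missed the threshold. The values rest on 58.9 to 178 estimated reads per library. With the depth covariate the fold change was 0.17 (adjusted p = 0.686), and the call was made after upper quartile rescaling (0.47, adjusted p = 0.0304) or without siCasp8 replicate 1 (0.47, adjusted p = 0.041). Depth moved with the groups, and its part in this difference was not tested beyond that covariate. Leukocytes are known to hold much Ripk3. The summed macrophage and leukocyte marker value was 2836 to 3038 in Scr and 2199.6 to 2349 in siCasp8, with Adgre1 and Clec4f at 0. Of the 4 tested markers, 2 (Cd14 and Csf1r) were called lower and 0 higher, beside 20.8% and 19.4% of all tested genes. Cd14 made up most of that sum (means of 2149 and 1675), and the general leukocyte marker Ptprc was 134 ± 9.73 and 152 ± 15.0 and was not called. The markers Lyz2, Cd3e, Cd79a and Nkg7 had means under the filter, with no value above 8.26. The part of such cells in the Ripk3 values was not tested.

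Mlkl had values of 674, 633, 656 and 649 in Scr and 716, 735, 782 and 667 in siCasp8. Replicate 4 of siCasp8 lay inside the control range and the other 3 lay above it. The log2 fold change was 0.15 (SE 0.0616, 95% interval 0.01 to 0.28), with a limma adjusted p of 0.0734, so it was not called. It was called after upper quartile rescaling (0.25, adjusted p = 0.00756) and without siCasp8 replicate 4 (0.19, adjusted p = 0.0374). Zbp1 encodes a sensor of Z-form nucleic acids that can start necroptosis through RIPK3. Its values were 7.55, 13.0, 8.22 and 15.3 in Scr and 15.5, 7.47, 8.51 and 13.4 in siCasp8. The groups covered nearly the same range, and only 5.24 to 17.7 estimated reads lay behind a value. The log2 fold change was 0.02 (SE 0.367, 95% interval -0.77 to 0.82, limma adjusted p = 0.967), so a change of up to about that interval was not detectable at this depth.

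Levels were compared between genes as the value per kb of annotated coding transcript. In Scr, Casp8 had the highest level of the 9 at 1991 ± 64.5 per kb, followed by Cflar at 1522 ± 47.9, Ripk1 at 759 ± 11.2 and Cyld at 661 ± 21.0 (SD, n = 4 each). Tradd at 465 ± 15.7, Mlkl at 328 ± 8.48 and Fadd at 266 ± 10.7 came next. Ripk3 at 48.4 ± 4.91 and Zbp1 at 7.98 ± 2.71 per kb were the lowest, and no neighbours in this order overlapped over the 4 Scr libraries. Ripk3, the kinase, was thus present at a lower level per kb than its substrate gene Mlkl. In siCasp8 the order began with Cflar at 1465 ± 61.4 per kb, and Casp8 fell to 742 ± 54.4, where its range overlapped that of Ripk1 at 707 ± 24.8. Cyld at 518 ± 28.3 and Tradd at 502 ± 13.5 also overlapped, and the order of the lower 4 genes was as in Scr. The transcript lengths are means over the annotated coding transcripts, which need not be the ones that AML12 cells use.

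**Figure D4:**
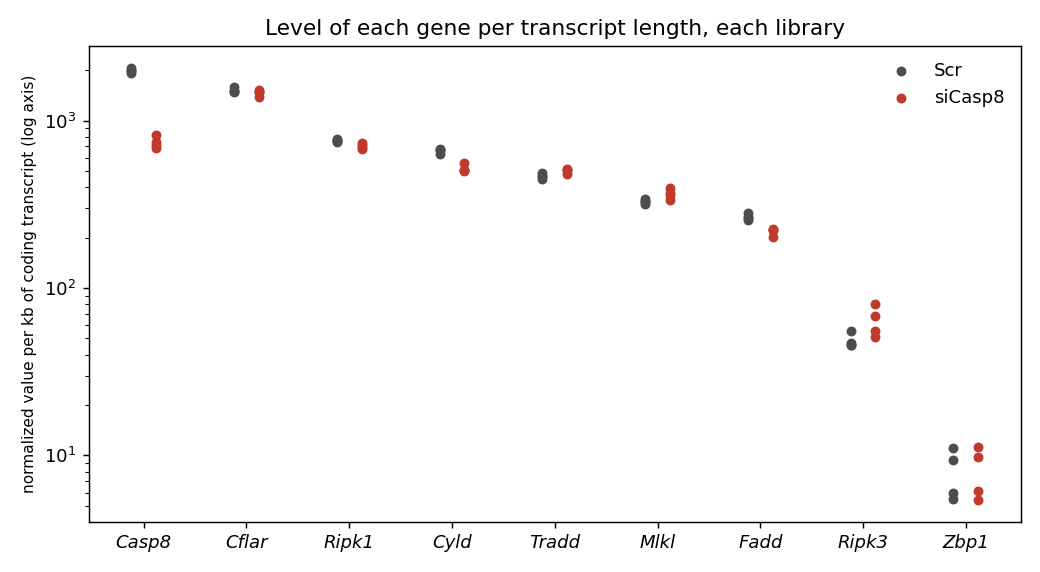
Normalized value per kb of annotated coding transcript (y axis, log scale) of each gene in each library, Scr in grey and siCasp8 in red, ordered by the Scr mean. Casp8 is the highest gene in Scr and falls to the level of Ripk1 in siCasp8, while Ripk3 and Zbp1 are the lowest in both groups.

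The 3 tested genes whose profile over the 8 libraries was most like that of Casp8, by Pearson's r of log2(value + 1), were Maoa (0.999), Sqle (0.998) and Elf1 (0.998). Maoa encodes a monoamine oxidase, Sqle an early enzyme of sterol synthesis and Elf1 an ETS family transcription factor. Their log2 fold changes were -0.92, -0.62 and -0.80. A fall was fixed by choosing genes for likeness to Casp8 over the same libraries, so r and the fold changes are a description, with no test.

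Genes around the complex were taken from 6 lists. Among 9 receptors, ligands and adaptors upstream of it, 7 were tested, 4 were called higher and 0 lower, and the list's median was 0.16 beside 0.00 for all tested genes, of which 19.4% were called higher and 20.8% lower. Fas, which encodes the death receptor that recruits FADD directly, rose from 818 ± 43.6 to 1404 ± 78.6 (log2 fold change 0.78, limma adjusted p = 7.60e-07, n = 4 each). Tlr3, the gene of a sensor of double-stranded RNA that signals to RIPK1 and RIPK3 through TICAM1, rose from 886 ± 20.4 to 1155 ± 73.1 (0.38, adjusted p = 0.000158). Fas and Tlr3 were above every control in 4 of 4 silenced cultures. The ligand genes Tnf and Fasl had means under the filter, and the largest value of either was 6.46. The count of 4 called genes was 2 with the depth covariate and 2 without siCasp8 replicate 4.

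Of 23 genes of the ubiquitin and kinase layer on the tumour necrosis factor receptor, 1 was higher and 5 lower, and 17 were not called (median -0.02). Traf2, which encodes the adaptor that brings the inhibitor of apoptosis ligases, rose from 949 ± 51.5 to 1108 ± 39.7 (log2 fold change 0.22, limma adjusted p = 0.00566). Tnfaip3, the gene of a ubiquitin-editing enzyme that dampens NF-kB and restrains RIPK3, fell from 4734 ± 332 to 3512 ± 163 (-0.43, adjusted p = 3.97e-05). Xiap, which encodes a caspase inhibitor, fell from 16726 ± 485 to 14046 ± 916 (-0.25, adjusted p = 0.000736). The shares called in this list were 4.35% higher and 21.7% lower, beside 19.4% and 20.8% of all tested genes. After upper quartile rescaling the balance turned to 6 higher and 2 lower, and with the depth covariate 1 was higher and 2 lower.

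Of 9 further caspase-8 substrates 8 were tested, with 2 higher (25%, beside 19.4% of all tested genes) and 3 lower (37.5%, beside 20.8%), and a median of -0.02. Upper quartile rescaling gave 3 higher and 2 lower, and the depth covariate 1 higher and 2 lower. Gsdmd, which encodes the pore-forming gasdermin D, rose from 4327 ± 55.1 to 5317 ± 136 (log2 fold change 0.30, limma adjusted p = 1.96e-05). Casp6 rose from 1575 ± 54.0 to 1772 ± 119 (0.17, adjusted p = 0.0249), with the groups overlapping and the call lost under 5 of 18 alternatives. Bcap31, the gene of an endoplasmic reticulum membrane protein, fell from 5850 ± 167 to 4253 ± 131 (-0.46, adjusted p = 1.26e-06). Il1b was at 0 in all 8 libraries.

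Of 6 other death effector domain proteins and partners, 2 were higher and 3 lower (median -0.19), where 40.2% of all tested genes were called. With the depth covariate 0 were higher and 3 lower. Pea15a, which encodes a small death effector domain protein that binds FADD and ERK, fell from 31310 ± 639 to 22857 ± 373 (log2 fold change -0.45, limma adjusted p = 3.31e-07). Casp8ap2, the gene of a large nuclear partner of caspase-8 also needed for histone mRNA processing, fell from 1563 ± 96.1 to 1043 ± 151 (-0.59, adjusted p = 0.000167). Dedd2 rose from 1252 ± 108 to 1562 ± 57.5 (0.32, adjusted p = 0.00123) and Dedd from 2103 ± 145 to 2344 ± 99.7 (0.16, adjusted p = 0.0364). The Dedd call was lost under 6 of 18 alternatives and the Dedd2 call with the depth covariate (adjusted p = 0.0517).

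Of 24 genes of necrosome chaperones, phosphatases and membrane repair, 6 were higher (25%, beside 19.4% of all tested genes) and 4 lower (16.7%, beside 20.8%), so the count was near the background (median 0.01). Upper quartile rescaling gave 11 higher and 4 lower. Hsp90ab1, the constitutive form of the chaperone that keeps RIPK1, RIPK3 and MLKL stable, rose from 116936 ± 3405 to 138385 ± 593 (log2 fold change 0.24, limma adjusted p = 0.000137). The stress-inducible form, Hsp90aa1, named here after its values were seen, fell from 34308 ± 3334 to 27660.0 ± 1547 (-0.31, adjusted p = 0.00186), and the co-chaperone gene Cdc37 was not called. Chmp2b, a subunit gene of the ESCRT-III complex that sheds membrane damaged by MLKL, rose from 4359 ± 229 to 5264 ± 176 (0.27, adjusted p = 0.000299). Vps4b, which encodes an ATPase that recycles ESCRT-III, fell from 8753 ± 755 to 5682 ± 272 (-0.62, adjusted p = 4.13e-06). The mitotic kinase gene Aurka fell from 680 ± 77.0 to 369 ± 19.4 (-0.88, adjusted p = 5.58e-06). Among the other ESCRT genes of the list, Chmp2a and Pdcd6ip were called higher at smaller fold changes (0.12 and 0.11), and Chmp3, Chmp4b, Vps4a and Tsg101 were not called.

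Of 18 genes of nucleic acid sensing and of the interferon pathway that controls Zbp1, 8 were higher (44.4%, beside 19.4% of all tested genes) and 3 lower (16.7%, beside 20.8%), with a median of 0.09. Upper quartile rescaling gave 11 higher and 2 lower. Ifih1, the gene of an RNA sensor, rose from 493 ± 39.5 to 654 ± 46.1 (log2 fold change 0.41, limma adjusted p = 0.0011), and the interferon-gamma receptor gene Ifngr2 rose from 2615 ± 167 to 3150 ± 110 (0.27, adjusted p = 0.000904). The DNA sensor gene Cgas fell from 96.5 ± 11.4 to 55.4 ± 1.01 (-0.78, adjusted p = 0.000686), and the other interferon-gamma receptor gene, Ifngr1, fell from 5754 ± 96.3 to 5056 ± 202 (-0.19, adjusted p = 0.00149). With the depth covariate 2 of the 18 were called, and Ifih1, Ifngr2 and Ifngr1 were not among them. After upper quartile rescaling Ifngr1 was at -0.09 and was not called.

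**Figure D5:**
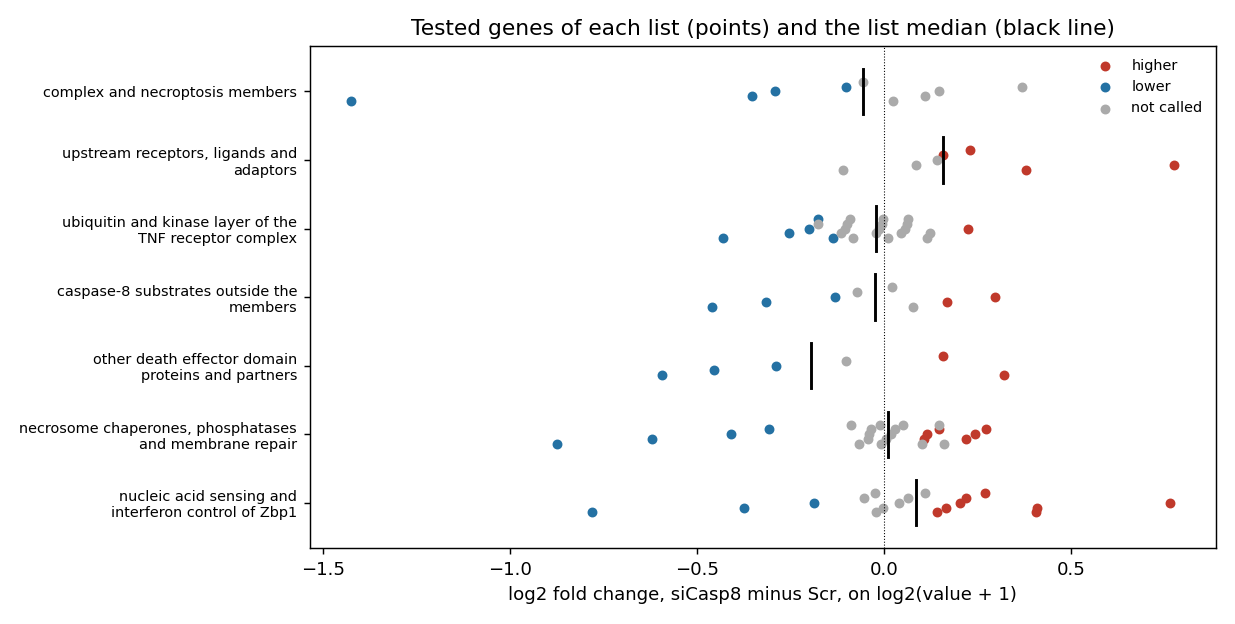
Log2 fold change of siCasp8 minus Scr on the log2(value + 1) scale (x axis) for each tested gene, in rows for the 9 genes and the 6 surrounding lists. Red points were called higher, blue points lower and grey points were not called, and black lines are list medians, which run from -0.19 to 0.16.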

How the data were processed

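Poly-A RNA of 4 Scr and 4 siCasp8 cultures of AML12 was sequenced, per the labels' protocols. Tools listed in the submitters' processing notes are DESeq2, sleuth, kallisto 0.44.0 and bcl2fastq 2.19, and the builds GRCm38 and GRCh38, with no roles. Values deposited by the authors are a normalized signal for each symbol, kallisto estimates scaled with DESeq2 by the table's name. How transcripts were summed to genes is not given in the sources used here. Library totals of 44.1 to 45.6 M do not show depth, which was instead taken from the value of 1 read, 0.773 to 1.47, read off the spacing of low values. Only 63.0% to 75.0% of low values lay within 0.1 read of a whole number, so count models were not used. A line without a symbol (0.0481% to 0.0631% of each total) was left out, and 0 columns were unused.

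The 14154 genes whose mean reached 10 were tested in R 4.3.3 with limma 3.58.1 on log2(value + 1), siCasp8 minus Scr, with a trend, no covariate, two-sided, with Benjamini-Hochberg adjustment over all of them. This scale understates changes of low genes. Single ratios used an exact permutation test. The fit was tested on simulated libraries of these groups (14154 genes, 200 of them altered). It called 86% of genes altered by a log2 of 1 and 70% at 0.5, and 3.70% of calls were false. The simulated noise was independent between genes, with no depth difference and far fewer altered genes than the 40.2% called here. Those rates therefore need not hold for these data. Transcript lengths and positions come from GENCODE M21 (GRCm38) and promoters from RefSeq (GRCm38.p6). All 9 genes were named, with the 2 called genes of smallest adjusted p in each direction of each surrounding list, the 3 genes most like Casp8 (leaving out predicted genes, clones and pseudogenes) and its protein-coding neighbours, of which 1 list gene is not reported here. The genes and lists were chosen with earlier results of these data known. The alternatives tried were other pseudocounts, filters and scalings, no trend, a depth covariate, a replicate block and leaving out each library.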

Additional observations from a re-analysis of the deposited data

Results flagged for a closer look

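Of 22 groups of 4 libraries looked at for the 9 genes and 2 ratios, 3 held a library whose gap to the rest was large for the range of its group. Chance flags about 5% of groups. Fadd was 784 in siCasp8 replicate 3, below the other 3 siCasp8 libraries. Cyld was 3602.5 in the same library, above the other 3. Ripk3 was 106 in Scr replicate 4, above the other 3 controls, and that library had an estimated depth of 51.8 M reads against 30.7 to 38.3 M in the others.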

How the results depend on the processing

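With estimated depth as a covariate, 2 of the 9 genes were called in place of 4, and 2764 of all tested genes in place of 5689. Depth differed between the groups, so this fit holds less information on the group difference. The other 17 alternatives called 3 to 6 of the 9. Leaving out 1 library gave 3 or 4, and the upper quartile count was 6, with 3 higher and 3 lower. Cflar reversed after upper quartile rescaling (0.0452). Zbp1, never called, reversed under quantile normalization (-0.24), with the depth covariate (-0.27) and without Scr replicate 1 (-0.12), Scr replicate 3 (-0.09), siCasp8 replicate 1 (-0.14) or siCasp8 replicate 4 (-0.07), and its values without 1 library ran from -0.14 to 0.188. It had no value with a filter at a mean of 50. Of the 25 genes outside the 9 that the naming rule picked, 19 kept their call and direction under all 18 alternatives and 6 lost the call under at least 1. Apart from Trak2, the rule picked them for a small adjusted p or for likeness to Casp8 in these data. That choice favours kept calls, so these counts do not speak for other genes. Same-numbered Scr and siCasp8 libraries had deviations that correlated by 0.04 to 0.17, over 0.1 in 1 of 4 pairs. Libraries with different numbers correlated by -0.13 to 0.05, and all 8 libraries correlated best with their own number. The labels name no pairs, so the main test took none, but a link between same-numbered libraries remains possible. With a replicate block, 4 of the 9 and 6020 genes were called, and the paired differences were 1.37 for the Cflar to Casp8 ratio and -0.25 for the Cyld to Ripk1 ratio, each with an exact p of 0.125, the smallest that 4 pairs allow. Depth limits Zbp1 most.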

Other observations

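Some list genes outside the naming rule were looked up after their values were seen. Irf7, the gene of an interferon-induced transcription factor, rose from 64.0 ± 14.8 to 108 ± 15.0 (log2 fold change 0.76, limma adjusted p = 0.00455, n = 4 each). Sting1, the gene of the adaptor downstream of CGAS, rose from 105 ± 7.52 to 140.2 ± 13.3 (0.41, adjusted p = 0.0144), while Cgas was lower. With estimated depth as a covariate, 1 of the 18 genes of the list that holds Irf7 and Sting1 was called higher and 1 lower. At most 1 of Irf7 and Sting1 therefore kept a higher call in that fit. The ubiquitin ligase gene Peli1, whose product acts on RIPK3, fell from 3507 ± 110.4 to 2641 ± 85.2 (-0.41). In Irf7, Sting1 and Peli1 the groups did not overlap, as in 37.5% of tested genes.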
